A study of Mus musculus with 6 samples.

Results

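The unfolded protein response and the integrated stress response were followed here through 34 genes in mouse primary keratinocytes, the cells that form the epidermis. The genes were taken by symbol from a given list, by a rule that uses no measured value, although the list was drawn up with earlier results of these data known, and all 34 were found among the 52550 genes of the table. They comprise 14 chaperones and folding enzymes of the endoplasmic reticulum (ER), 7 stress sensors and transcription factors, 6 targets of the transcription factor ATF4 and feedback regulators, and 7 genes of ER-associated degradation. The cells came from the skin epidermis of wild type C57BL/6 mice aged 0 to 2 days after birth and were grown for 2 days. The 3 libraries of 1 group were untreated, and the 3 of the other had received recombinant IL-33 for 12 h, at a dose that the labels do not state. IL-33 belongs to the IL-1 cytokines and is released by damaged barrier cells. Both groups share strain, genotype and culture, and the labels name no transgene. Separate animals or cultures are not stated for the replicates, so p-values here reflect only how far these libraries spread, and that spread may be technical.

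The ER folds secreted and membrane proteins, and the sensors IRE1 (gene Ern1), PERK (Eif2ak3) and ATF6 react when unfolded proteins gather there. IRE1 splices the Xbp1 RNA into a form that encodes an active transcription factor, and ATF6 is cut to release its own active fragment. Together these factors raise chaperones and the degradation machinery. PERK phosphorylates the translation factor eIF2, which lowers most translation while favouring that of ATF4. Other eIF2 kinases, which answer to amino acid shortage, viral RNA and haem shortage, converge on the same step, and this shared arm is called the integrated stress response. In epidermis these pathways are known to be active during keratinocyte differentiation. Much of the control acts on protein, splicing or translation, which gene-level RNA does not measure.

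None of the 34 genes passed the test of IL-33 against untreated cells, in which 0.0697% of all 15778 tested genes did (11 genes, adjusted p under 0.05, edgeR's quasi-likelihood test). All 34 passed the filter on low counts, and the smallest adjusted p among them was 0.518, for Dnajb9. DESeq2 and limma-voom also called 0 of the 34, although DESeq2 called 73 genes in all. Leaving out untreated replicate 3 gave 18 called genes, leaving out IL-33 replicate 1 gave 20 and leaving out IL-33 replicate 3 gave 90, each time with 0 members. At an unadjusted p under 0.05 there were 4 members, Canx, Pdia4, Dnajb9 and Atf4, or 11.8% against 6.74% of all tested genes. All 4 were lower with IL-33. Of all tested genes, 3.31% were both under that p and lower with IL-33. The number of members at that p was 2 when replicate 1 of either group was left out, and 6 without IL-33 replicate 3.

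Most of the members had a value slightly below that of untreated cells. The log2 fold change (IL-33 minus untreated) was below 0 in 27 of 34, or 79.4%, against 49.5% of all tested genes. Its median was -0.069 over the members and 0.0018 over all tested genes. In 7 members every IL-33 library was below every untreated library, which is 20.6% against 6.26% of all tested genes. Those were Pdia4, Pdia6, Dnajb9, Creld2, Eif2ak3, Atf4 and Syvn1. In 0 members was every IL-33 library the higher, against 7.39% of all tested genes. The members share the same 6 libraries, so these counts describe the list and carry no test.

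The intervals show how large a difference these libraries could hold. For 28 of 34 members the 95% interval lay within a 1.5-fold change in either direction, as it did for 61.9% of all tested genes. It lay within a 2-fold change for 30 of 34, against 75.6%. These shares were not matched for expression level, on which the width of an interval depends. The 4 members with wider intervals were Hspa5, Xbp1, Sel1l and Derl3, whose intervals reached beyond 2-fold. Dnajb9 and Derl2 reached beyond 1.5-fold on the lower side.

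Some member promoters hold an element of ATF6 and XBP1 or one of ATF4, and the sites are printed to show which gene holds which, with Herpud1 holding both kinds. The ER stress response element, ERSE, through which ATF6 raises chaperones, was searched on both strands as CCAAT, 9 bases of any kind and CCACG, in RefSeq promoters (GRCm38.p6) that run from 250 bases before to 50 after each transcription start. It was present in 9 of the 30 members that the promoter table holds, against 37 of all 27025 genes in that table, or 0.137%. Of the 9 members 7 are chaperones or folding enzymes and 2 belong to ER-associated degradation, and Hsp90b1 has 2 sites. Capitals mark the CCAAT and CCACG blocks in the following 10 sites.
Hspa5 (chr2:34772025-34772043, plus strand, element from base 47 to 65 before the start): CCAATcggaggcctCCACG
Hsp90b1 (chr10:86705638-86705656, minus strand, element from base 194 to 212 before the start): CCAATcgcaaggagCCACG
Hsp90b1 (chr10:86705533-86705551, plus strand, element from base 89 to 107 before the start): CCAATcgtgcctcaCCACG
Calr (chr8:84847075-84847093, plus strand, element from base 144 to 162 before the start): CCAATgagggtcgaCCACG
Canx (chr11:50325800-50325818, minus strand, element from base 127 to 145 before the start): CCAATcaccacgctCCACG
Pdia6 (chr12:17266491-17266509, plus strand, element from base 80 to 98 before the start): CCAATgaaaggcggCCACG
Dnajc3 (chr14:118937827-118937845, plus strand, element from base 87 to 105 before the start): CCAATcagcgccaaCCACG
Creld2 (chr15:88819520-88819538, minus strand, element from base 108 to 126 before the start): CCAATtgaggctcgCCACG
Syvn1 (chr19:6046532-6046550, plus strand, element from base 26 to 44 before the start): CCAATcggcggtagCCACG
Derl3 (chr10:75893242-75893260, minus strand, element from base 138 to 156 before the start): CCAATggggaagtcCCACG

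A shorter element of the same factors, ERSE-II (ATTGG, 1 base, CCACG), whose ATTGG is the CCAAT box read on the other strand, was found in 2 members and in 12 genes of the table, or 0.044%. Its capitals mark the ATTGG and CCACG blocks.
Herpud1 (chr8:94386377-94386387, plus strand, element from base 42 to 52 before the start): ATTGGgCCACG
Dnajb11 (chr16:22857852-22857862, plus strand, element from base 7 to 17 after the start): ATTGGcCCACG

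The composite element of ATF4 with C/EBP factors, TGATGNAA, was present in 4 members, of which 3 are ATF4 targets, and in 4.511% of all genes of the table. Capitals mark the 8 bases of the element, which stands between 8 flanking bases on each side.
Asns (chr6:7693217-7693240, minus strand, element from base 16 to 23 before the start): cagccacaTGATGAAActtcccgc
Chac1 (chr2:119351041-119351064, minus strand, element from base 186 to 193 before the start): ggcaggagTGATGCAAcggcaggg
Trib3 (chr2:152344031-152344054, plus strand, element from base 14 to 21 after the start): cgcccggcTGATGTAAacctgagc
Herpud1 (chr8:94386309-94386332, minus strand, element from base 105 to 112 before the start): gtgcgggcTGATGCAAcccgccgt
No member held TGACGTGG, a site of XBP1 and ATF6, which 0.714% of all genes held. The CCAAT box on its own, which is part of every ERSE, was in 25 of 30 members and in 41.058% of all genes. A match is a description of the letters in this window and does not show binding, and Hyou1, Manf, Atf6 and Derl1 were not in the table. The members were listed as genes of these responses, so higher shares of their elements are not an independent result. Sites with a mismatch to the searched letters were not counted. Positions count from RefSeq starts, and transcripts annotated in GENCODE M21 can start elsewhere. The Hspa5 transcript of 3672 bases starts at chr2:34771970 and the Asns transcript of 2001 bases at chr6:7693254, so each element lies after that start. The Trib3 transcript of 2026 bases starts at chr2:152344032, which leaves its element before that start.

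**Figure D1:**
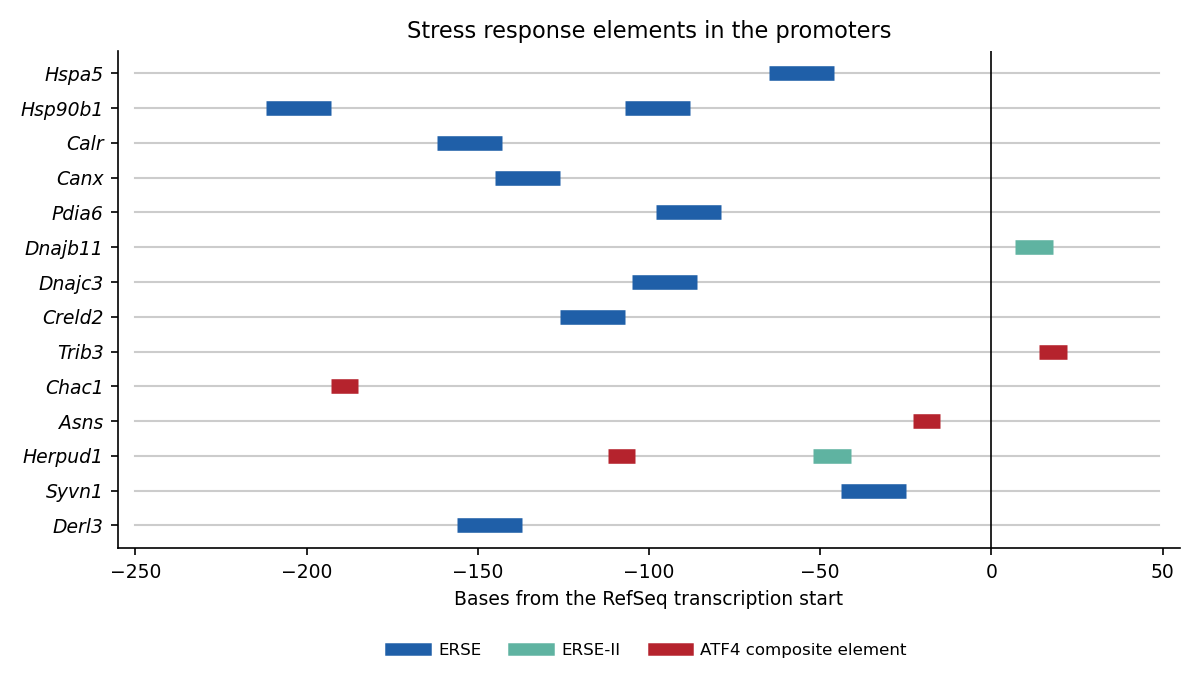
Position of the ERSE, ERSE-II and ATF4 composite elements along the promoters of the 14 members that hold any of them, in bases from the RefSeq transcription start (0, vertical line). Of the ERSE sites, all 10 lie before the start, while the elements of Trib3 and Dnajb11 lie after it.

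None of the genes with an ERSE passed the test. Of the 9, 2 had a log2 fold change above 0 (Calr and Dnajc3) and 7 below, with a median of -0.071, against -0.069 over all 34 members. That median is the value of Derl3, a gene with only 11 to 23 deposited counts per library, so its closeness to -0.069 carries little weight.

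The libraries held 34188173 to 45266298 deposited counts, about 4 of which stand for 1 sequenced fragment. The summed CPM (counts scaled to library size by TMM) of 8 keratinocyte markers ran from 36000 to 37040 in untreated and from 36500 to 38900 in IL-33 libraries. For 8 melanocyte markers it was 1158 to 1209 and 1156 to 1257, and for 8 fibroblast markers 124 to 160.7 and 125.8 to 161.6. The 8 immune markers summed to 0.0883 to 0.849 and 0.478 to 3.10 CPM, with Cd207, Cd3e and Trdc at 0 in every library. The 6 endothelial markers summed to 13.5 to 19.8 and 16.3 to 17.6 CPM, with Emcn at 0. The groups overlapped in each of these sums, although Krt5 and Krt14 made up most of the keratinocyte sum and Vim most of the fibroblast sum. Groups were separate in 1 of 8 keratinocyte, 1 of 7 tested fibroblast and 2 of 8 melanocyte markers, against 13.7% of all tested genes. These were Krt5 and Mlana, higher with IL-33, and Col1a1 and Tyr, lower. Col1a1 was 12.6, 4.74 and 5.72 CPM untreated and 4.14, 2.41 and 3.60 with IL-33. In such bulk libraries fewer cells of a type and less RNA per cell cannot be told apart.

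Genes were set side by side on the deposited gene FPKM scale (fragments per kilobase, scaled to depth). Their order on it depends on the length taken for each gene, which is not stated. Atf4 was the highest of the 34 in untreated cells at 477 ± 15.2 FPKM (SD, n = 3) and ranked 69 of 21839 genes. The chaperones of the ER lumen followed, with Calr at 161 ± 5.41 FPKM, Pdia3 at 153 ± 2.85 FPKM and Hspa5 at 146 ± 38.8 FPKM. Asns stood beside them at 145 ± 4.72 FPKM. The spread of Hspa5 between libraries covered the levels of the other 3, so its place in this order is not settled. The order of Asns and Pdia3 also differed between gene and transcript values. In untreated replicate 1 the gene FPKM was 146 for Asns and 153 for Pdia3, while that of their leading transcripts was 187 and 173. The stress sensors were at the other end, with Atf6 at 6.86 ± 0.443 FPKM, Eif2ak3 at 4.12 ± 0.168 FPKM and Ern1 at 2.62 ± 0.306 FPKM. Derl3 was the lowest at 0.167 ± 0.0506 FPKM, with deposited counts of 23, 11 and 19 in untreated and 19, 11 and 17 in IL-33 libraries, where 12 counts, or 3 fragments, were taken as the floor. Over the 6 libraries the highest CPM was less than 1.2 times the lowest in 22 of the 34 members.

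**Figure D2:**
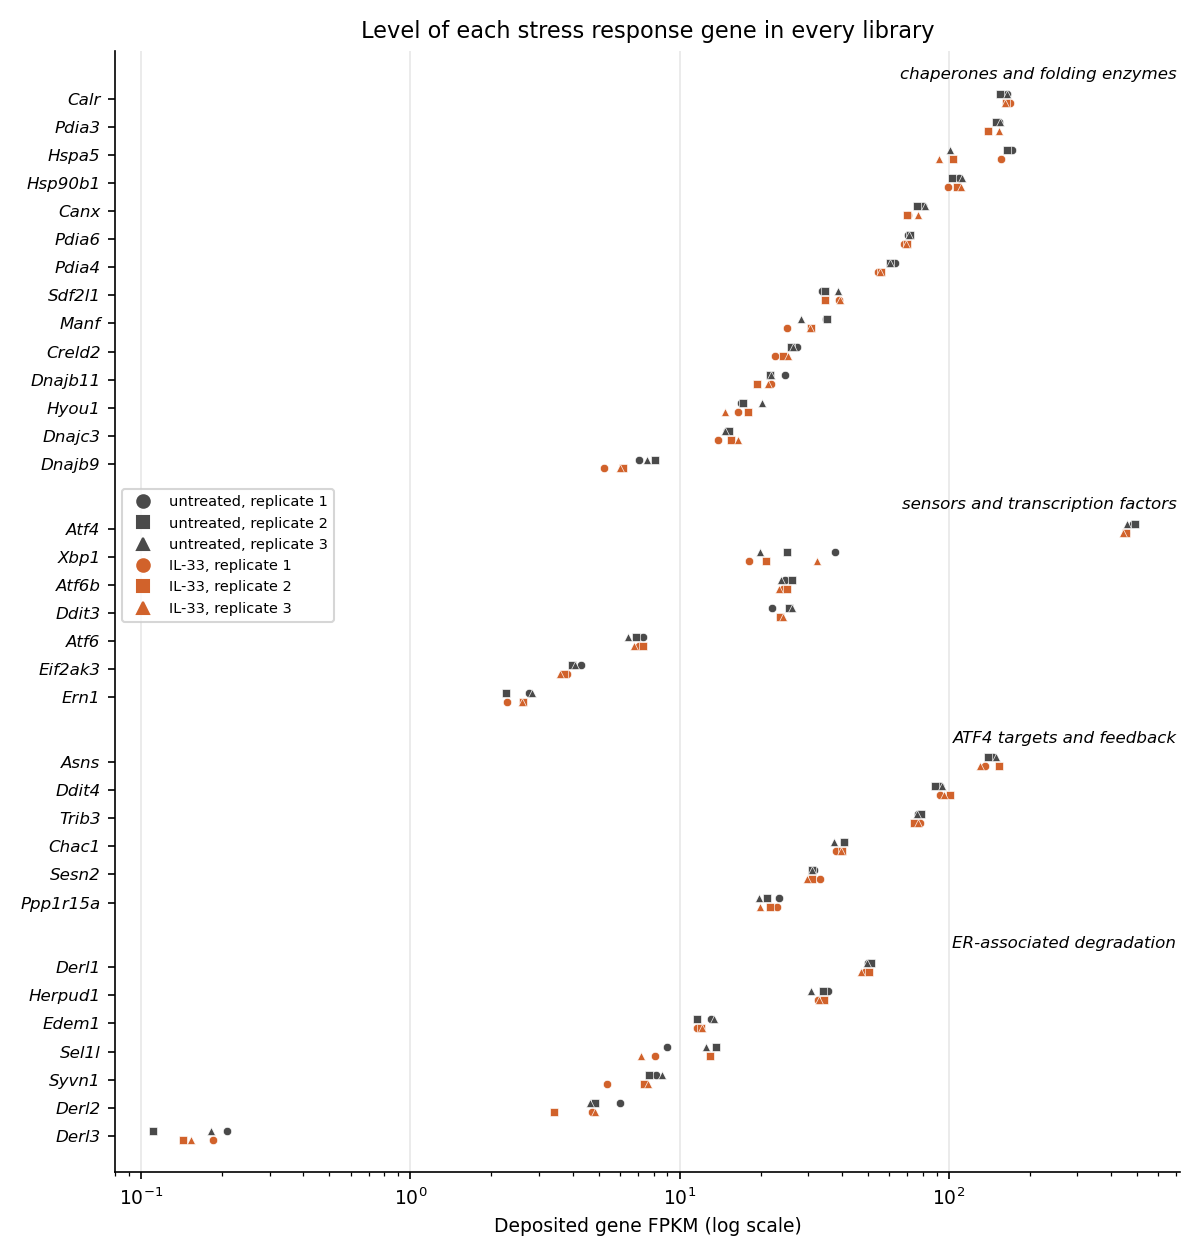
Deposited gene FPKM (log scale) of the 34 genes in each of the 6 libraries, by role and in order of the untreated mean, with untreated libraries in grey and IL-33 libraries in orange. Most genes show 6 points within a narrow band, while Hspa5, Xbp1, Sel1l and Derl3 spread within both groups.

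Among the sensors and transcription factors, 6 of 7 were below 0, the median log2 fold change was -0.068 and none passed the test. Eif2ak3, the gene of PERK (chr6:70844515-70905245, plus strand of GRCm38), was 28.9, 26.8 and 27.3 CPM in untreated replicates 1 to 3 and 25.6, 24.9 and 24.1 with IL-33. Every IL-33 library was thus below every untreated one. The log2 fold change was -0.15 (95% interval -0.33 to 0.025), adjusted p = 0.763. Ern1, the gene of IRE1, was 25, 20.7 and 25.8 CPM untreated and 20.7, 23.8 and 23.7 with IL-33, and its groups overlapped. Atf6 was 74.8, 70.6 and 65.7 CPM untreated and 72.5, 74.8 and 69.5 with IL-33, also overlapping, with a log2 fold change of 0.038 (95% interval -0.11 to 0.19). Its relative Atf6b, which encodes a second ER-anchored factor, was 75.4, 80.1 and 72.8 CPM untreated and 73.8, 76.8 and 72.1 with IL-33, with a log2 fold change of -0.036 (95% interval -0.17 to 0.10). The 95% interval of each of these 4 genes included 0.

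Atf4, the central factor of the integrated stress response (chr15:80255184-80257541, plus strand), was 922, 941 and 881 CPM in untreated replicates 1 to 3 and 872, 871 and 849 with IL-33. The groups did not overlap, with the highest IL-33 library below the lowest untreated one, and the log2 fold change was -0.082 (95% interval -0.16 to -0.00012). That is a small difference, with an unadjusted p of 0.0497 and an adjusted p of 0.741. Ddit3, which encodes CHOP, a factor tied to cell death under lasting ER stress, was 42.1, 48.5 and 49.6 CPM untreated and 44.8, 45 and 46.1 with IL-33. The IL-33 libraries lay inside the untreated range, with a log2 fold change of -0.044 (95% interval -0.22 to 0.13). Exons of Ddit3 overlap those of Mars on the other strand, and whether counting used strand is not stated, so reads in the overlapping stretch cannot be told apart.

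Xbp1 (chr11:5520659-5525893, plus strand) was the least even of the factors, at 136, 90.7 and 71.6 CPM in untreated replicates 1 to 3 and 65.4, 75.9 and 117 with IL-33. Untreated replicate 1 was the highest of the 6 and IL-33 replicate 1 the lowest, and the ranges of the groups overlapped widely. The log2 fold change was -0.20 (95% interval -1.17 to 0.76), and it changed sign to 0.082 without untreated replicate 1. The SD of log2 CPM within groups was 0.452, against a median of 0.0803 over the members and 0.155 over all tested genes. A single transcript held at least 90.6% of the transcript CPM of Xbp1 in every library. Whether the table separates the form spliced by IRE1 was not examined.

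Among the 14 chaperones and folding enzymes, 3 were above 0 (Calr, Dnajc3 and Sdf2l1) and 11 below, with a median log2 fold change of -0.13, and none passed the test. Dnajb9 encodes ERdj4, a co-chaperone that holds IRE1 in its inactive state (chr12:44205559-44210326, minus strand). It had 20.1, 22.9 and 21.5 CPM in untreated replicates 1 to 3 and 14.9, 17.4 and 17 with IL-33. The groups were separate, with all 3 IL-33 libraries below the lowest untreated one. The log2 fold change was -0.39 (95% interval -0.62 to -0.16), the most negative of the 34, with an unadjusted p of 0.00377 and an adjusted p of 0.518. It lay between -0.44 and -0.32 over every alternative run.

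Pdia4, a protein disulfide isomerase, was 169, 161 and 160.3 CPM untreated and 145, 149 and 149 with IL-33. Its groups were separate, and the log2 fold change was -0.15 (95% interval -0.25 to -0.049), adjusted p = 0.623. Canx, the membrane lectin chaperone calnexin, was 419, 397 and 424 CPM untreated and 366, 364 and 401 with IL-33. IL-33 replicate 3 exceeded untreated replicate 2, so the groups overlapped, with a log2 fold change of -0.13 (95% interval -0.24 to -0.024) and an adjusted p of 0.740. Calr, its soluble counterpart calreticulin and the chaperone highest in mean untreated gene FPKM, was 525, 498 and 526 CPM untreated and 537, 524 and 519.7 with IL-33. Its groups overlapped, and the log2 fold change of 0.029 (95% interval -0.056 to 0.11) kept within a narrow interval around 0.

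Hspa5, the gene of the main ER chaperone BiP and a standard marker of ER stress (chr2:34771970-34777547, plus strand), was 807, 775 and 475 CPM in untreated replicates 1 to 3 and 729.7, 485 and 434 with IL-33. High and low libraries occurred in both groups, and the SD of log2 CPM within groups was 0.410. The log2 fold change of -0.32 (95% interval -1.19 to 0.56) had a wide interval, with an adjusted p of 0.897, and it ranged from -0.58 without IL-33 replicate 1 to -0.17 without IL-33 replicate 3. Its partners in the ER lumen were more even. Hsp90b1, which encodes GRP94, was 483 ± 18.9 CPM untreated and 474 ± 28.4 with IL-33 (SD, n = 3), and Hyou1, an exchange factor for BiP, was 145 ± 14.4 CPM untreated and 132 ± 13.1 with IL-33. Dnajb11, Dnajc3 and Sdf2l1, which act with BiP, had log2 fold changes of -0.13 (95% interval -0.29 to 0.037), 0.035 (95% interval -0.12 to 0.19) and 0.078 (95% interval -0.10 to 0.26).

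The disulfide isomerases Pdia3 and Pdia6 were 532 ± 8.82 CPM untreated and 503 ± 28.5 with IL-33, and 296 ± 3.09 CPM untreated and 288 ± 4.58 with IL-33. Pdia3 had overlapping groups. Pdia6 had separate groups, although its log2 fold change was -0.040 (95% interval -0.12 to 0.043). Creld2, an ER protein induced by ER stress, was 40.3 ± 0.936 CPM untreated and 36.4 ± 2.04 with IL-33, with separate groups and a log2 fold change of -0.15 (95% interval -0.31 to 0.013). Manf, a secreted ER stress protein, was 129 ± 16 CPM untreated and 113 ± 13.2 with IL-33, with overlapping groups. Exons of Pdia3, Pdia6 and Manf overlap those of a protein-coding neighbour, as do those of Ddit3, Ppp1r15a, Syvn1 and Derl2, which makes 7 members in all.

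The ATF4 targets and feedback regulators were the most even of the groups. Of the 6, 3 were above and 3 below 0, the median log2 fold change was -0.0023, and the 95% interval of each lay within a 1.5-fold change. Trib3, a pseudokinase that restrains ATF4 and CHOP, was 181, 187 and 179 CPM untreated and 184, 175 and 181 with IL-33. All 6 libraries of Trib3 fell within a narrow band, with a log2 fold change of -0.016 (95% interval -0.11 to 0.081). Chac1, which degrades glutathione, was 74, 74.4 and 67.9 CPM untreated and 69, 73 and 72.3 with IL-33, with a log2 fold change of -0.013 (95% interval -0.15 to 0.13). Asns, asparagine synthetase, was 443, 427 and 453 CPM untreated and 412, 465 and 397 with IL-33, with a log2 fold change of -0.055 (95% interval -0.19 to 0.076). These 3 genes carry the composite element printed above, and in each the groups overlapped.

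The other 3 also had overlapping groups. Sesn2, an inhibitor of mTORC1 under amino acid shortage, was 122, 119.7 and 119 CPM untreated and 128, 119 and 116 with IL-33, with a log2 fold change of 0.0082 (95% interval -0.11 to 0.13). Ddit4, which encodes the mTORC1 inhibitor REDD1, was 180.2, 174 and 183 CPM untreated and 179.8, 196 and 187 with IL-33, with a log2 fold change of 0.065 (95% interval -0.041 to 0.17). Ppp1r15a, which encodes GADD34, the subunit that directs the eIF2 phosphatase, was 76.2, 69 and 64.3 CPM untreated and 74.9, 70.7 and 65.2 with IL-33, with a log2 fold change of 0.0092 (95% interval -0.17 to 0.19). The largest adjusted p of these 6 was 0.988 and the smallest 0.825.

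None of the 7 genes of ER-associated degradation, which returns misfolded proteins to the cytosol for the proteasome, passed the test. Their median log2 fold change was -0.089, and all 7 values were below 0, although that of Herpud1 was close to 0 and changed sign in 8 of 17 alternative settings, and Derl3 was near the floor. Syvn1 encodes the ubiquitin ligase HRD1 at the centre of this machinery. It was 43.2, 41.1 and 45.5 CPM in untreated replicates 1 to 3 and 28.6, 39.1 and 40.5 with IL-33. The groups were separate, with IL-33 replicate 1 well below the other 5 libraries, and the log2 fold change was -0.26 (95% interval -0.55 to 0.022), adjusted p = 0.763. Without that library it was -0.12. Sel1l, the partner of HRD1 (chr12:91806043-91849157, minus strand), was 85.7, 129.9 and 119 CPM in untreated replicates 1 to 3 and 77.1, 123 and 68.8 with IL-33. Its high and low libraries were found in both groups, with a within-group SD of 0.387 on the log2 scale, and the log2 fold change was -0.32 (95% interval -1.11 to 0.48). It was -0.61 without IL-33 replicate 2 and -0.15 without IL-33 replicate 3.

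Derl1, a membrane protein of the export complex and the gene of this group with the highest FPKM, was 174, 179 and 173 CPM untreated and 171, 176 and 165 with IL-33, with a log2 fold change of -0.043 (95% interval -0.14 to 0.057). Its relative Derl2 was 53.8, 43.7 and 41.6 CPM untreated and 42.5, 30.7 and 43.4 with IL-33, with a log2 fold change of -0.26 (95% interval -0.62 to 0.11). IL-33 replicate 2 was the lowest of the 6 libraries of Derl2, and without it the value was -0.11. Edem1, a lectin that hands glycoproteins to degradation, was 90.9 ± 6.69 CPM untreated and 85.4 ± 2.30 with IL-33. Herpud1, an HRD1 cofactor and a target of both ATF6 and ATF4, was 86.8 ± 6.24 CPM untreated and 86.7 ± 2.29 with IL-33, with a log2 fold change of -0.0013 (95% interval -0.15 to 0.14). Derl3 was too low to compare, with an interval from -1.30 to 1.16.

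**Figure D3:**
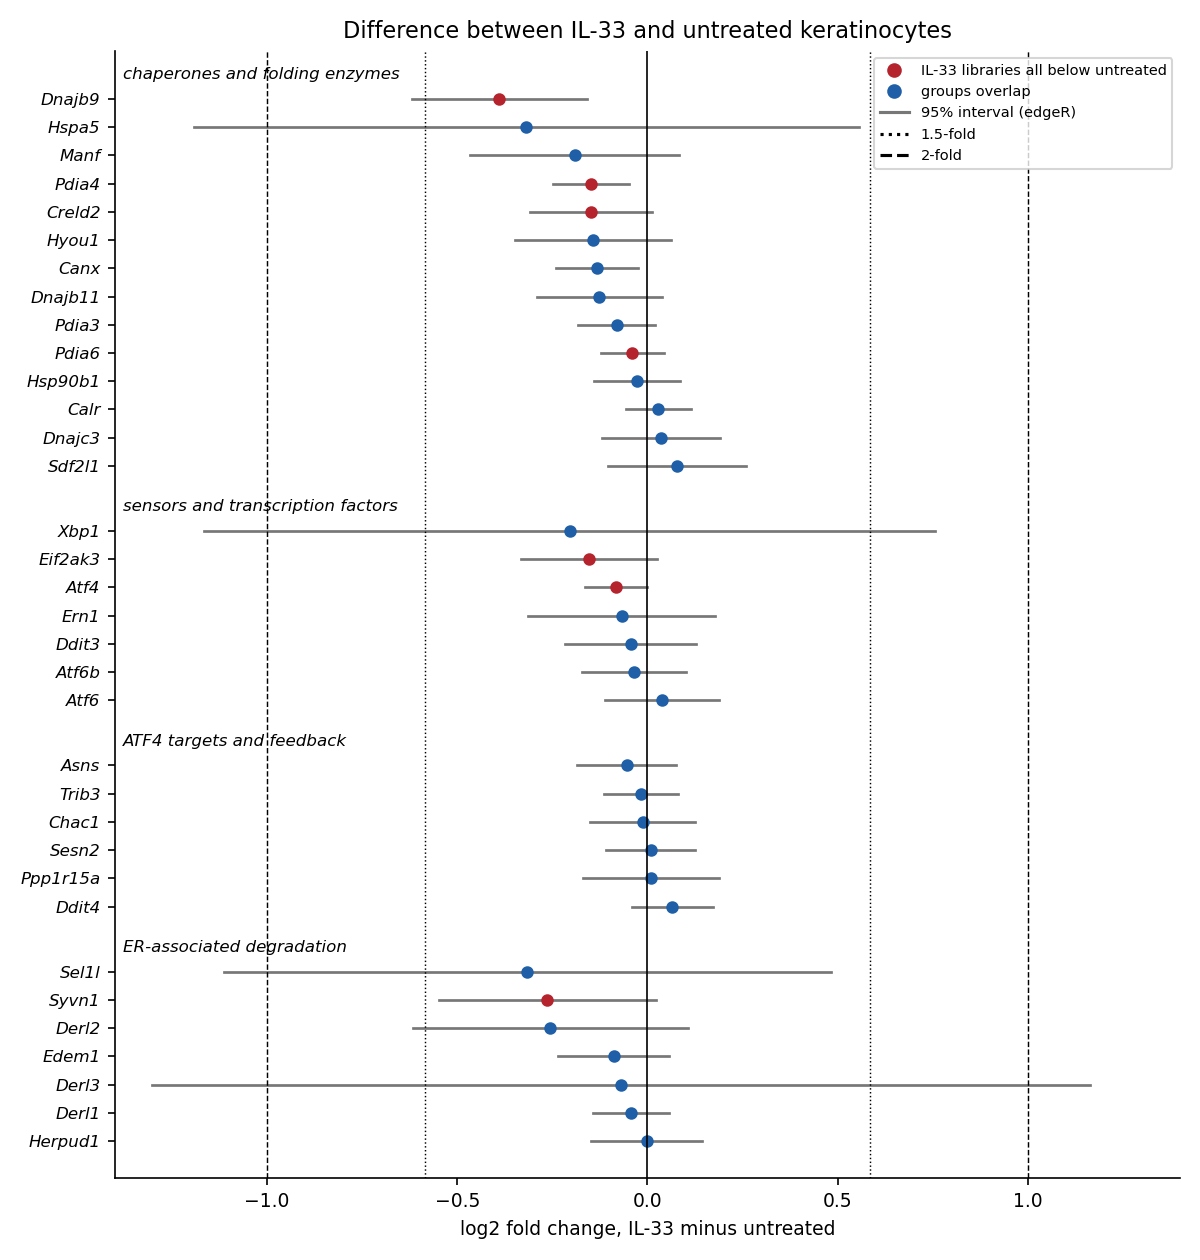
Log2 fold change of each gene, IL-33 minus untreated, with its 95% interval from edgeR, ordered by value within each role. Red points are the 7 genes with every IL-33 library below every untreated one, and dotted and dashed lines mark 1.5-fold and 2-fold changes. The intervals of the 6 ATF4 targets lie close to 0, while those of Hspa5, Xbp1, Sel1l and Derl3 cross a 2-fold line.

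No transcript of these genes passed the test either. Of 141 listed transcripts of the 34 genes, 87 were tested and 0 called, in a test that called 0.0299% of all 40163 transcripts. At an unadjusted p under 0.05 there were 4, or 4.6% against 4.24% of all tested transcripts. These were the leading transcripts of Atf4, Canx, Dnajb9 and Pdia4. The same transcript led in all 6 libraries for 29 of the 34 genes.

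In the other 5 (Asns, Hspa5, Manf, Syvn1 and Derl3) the leading transcript differed between libraries, and in each of these genes also within a group. Hspa5 has a shorter transcript of 2613 bases (chr2:34772095-34776531) and a longer one of 3672 bases (chr2:34771970-34777547). The shorter held 87.3%, 87.1% and 16.7% of the transcript CPM of Hspa5 in untreated replicates 1 to 3 and 87%, 19.2% and 20.01% with IL-33. The longer held 11.8%, 12.2% and 76.6% untreated and 12.5%, 74.6% and 75.9% with IL-33. The 3 libraries in which the shorter led, untreated replicates 1 and 2 and IL-33 replicate 1, are the 3 with the highest Hspa5 CPM. The part of this assignment in the spread of Hspa5 was not tested.

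Asns also had a pair of transcripts that exchanged the lead, of 2001 and 2016 bases, with different first exons. The transcript of 2016 bases held 5.97%, 68.9% and 5.06% untreated and 5.19%, 68.1% and 4.29% with IL-33. It led in replicate 2 of both groups, where the gene CPM of Asns was 427, the lowest untreated value, and 465, the highest of all 6. In Syvn1, IL-33 replicate 1, the library with the low gene value, was also the library in which a transcript of 3363 bases led, with 43.7% of the transcript CPM against 0% in the other 5. In Manf a transcript of 960 bases held 52.2% in untreated replicate 3 and 19.0% in IL-33 replicate 1. These libraries had the lowest gene CPM of Manf (110 and 97.6), and elsewhere that transcript held 2.43% to 8.33%. Derl2 kept its leading transcript, of 3666 bases. Its share was lowest, at 68.4%, in IL-33 replicate 2, the library with the lowest gene CPM of Derl2. The part of assignment in these gene values was not tested.

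**Figure D4:**
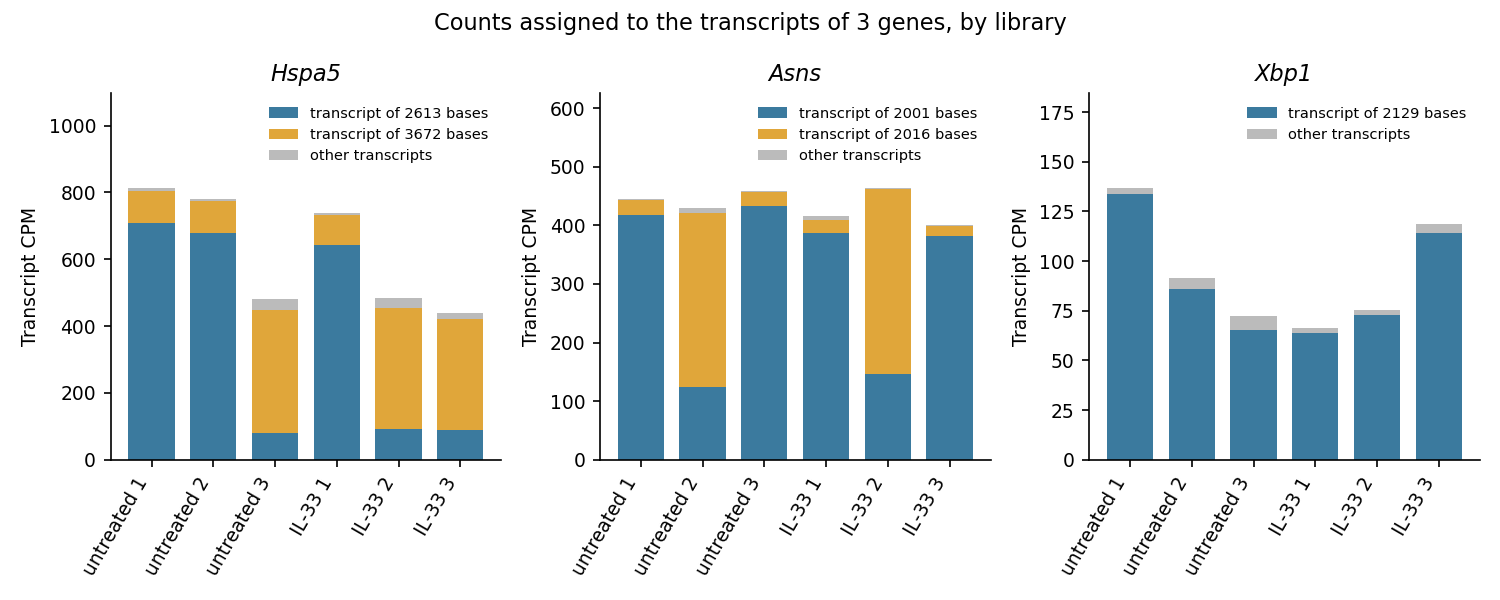
CPM of the leading transcripts of Hspa5, Xbp1 and Asns in the 6 libraries, as stacked bars from 0. In Hspa5 the leading transcript and the height of the bar change together between libraries of the same group, in Asns the leading transcript changes at a more even height, and in Xbp1 1 transcript leads throughout.

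Other genes of the same pathways were also tested. Of 174 tested genes in 8 further lists, 0 passed edgeR's test and 20 had an unadjusted p under 0.05 (5 higher, 15 lower), which is 11.5% against 6.74% of all tested genes. DESeq2 called 1 of them, Slc38a2, lower with an adjusted p of 0.0468, and limma-voom 0. Without IL-33 replicate 1 edgeR called Txndc5, higher, and without IL-33 replicate 3 Spcs3, lower. The list of 36 other ATF4 pathway genes had 22 below 0, a median log2 fold change of -0.021 and 3 with an unadjusted p under 0.05, all lower. The amino acid transporter Slc38a2 was 1315 ± 32.3 CPM untreated and 1162 ± 21 with IL-33 (log2 difference -0.18, adjusted p = 0.302), and Slc3a2, the heavy chain of other amino acid transporters, 401 ± 10.1 CPM untreated and 360.1 ± 14 with IL-33 (log2 difference -0.16, adjusted p = 0.548). Both had separate groups.

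The 31 genes of ER translocation and N-glycosylation had 22 below 0, a median of -0.071, and 7 genes with separate groups in the lower direction (22.6%, against 6.26% of all tested genes) and 1 in the higher (against 7.39%). Rpn2, a subunit of the oligosaccharyltransferase, was 249.6 ± 11.1 CPM untreated and 221 ± 7.62 with IL-33 (log2 difference -0.17, adjusted p = 0.575). Sec63, which works with the translocon, was 85.6 ± 2.86 CPM untreated and 75.3 ± 0.608 with IL-33 (log2 difference -0.18, adjusted p = 0.623). Of 32 other ER folding and redox enzymes 18 were below 0, with a median of -0.039. The glycoprotein folding sensor Uggt1 was 106 ± 2.70 CPM untreated and 90.9 ± 8.64 with IL-33 (log2 difference -0.23, adjusted p = 0.669). Kdelr1, a receptor that returns chaperones to the ER, was 60.9 ± 6.06 CPM untreated and 75.8 ± 6.14 with IL-33 (log2 difference 0.32, adjusted p = 0.575). In this list 9 genes were separate in the lower direction, or 28.1% against 6.26% of all tested genes, and 4 of 32 in the higher, against 7.39%.

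The remaining lists had medians nearer to or above 0. For the 17 genes of eIF2, its exchange factor, kinases and phosphatases, which include the member Dnajc3, the median was 0.035 and 0 had an unadjusted p under 0.05. Impact, an inhibitor of the kinase GCN2, was 43.3 ± 1.91 CPM untreated and 48.2 ± 3.50 with IL-33 (log2 difference 0.16, adjusted p = 0.763), and the exchange factor subunit Eif2b5 169.9 ± 3.21 CPM untreated and 179 ± 6.46 with IL-33 (log2 difference 0.078, adjusted p = 0.779). Among 12 ER stress transducers and their processing genes the median was 0.030. Rtcb, the ligase that joins the Xbp1 exons after IRE1 cuts, was 249.8 ± 5.87 CPM untreated and 267 ± 2.28 with IL-33 (log2 difference 0.093, adjusted p = 0.740), and Bloc1s1, an RNA that IRE1 degrades, 9.83 ± 2.22 CPM untreated and 12.3 ± 0.497 with IL-33 (log2 difference 0.32, adjusted p = 0.763). Over 20 other degradation genes the median was -0.0068, with Ubxn6 at 52.8 ± 1.77 CPM untreated and 57.6 ± 3.47 with IL-33 (log2 difference 0.13, adjusted p = 0.765) and Rnf5 at 17.4 ± 2.24 CPM untreated and 19.8 ± 0.676 with IL-33 (log2 difference 0.19, adjusted p = 0.789).

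The last lists hold chaperones of other compartments. The 16 cytosolic heat shock genes had a median of 0.052, with 4 separate in the higher direction, against 7.39% of all tested genes, and 0 in the lower, against 6.26%. Hspa1b was 247 ± 6.29 CPM untreated and 272 ± 6.62 with IL-33 (log2 difference 0.14, adjusted p = 0.623) and Hspa1a 122 ± 5.25 CPM untreated and 134 ± 5.50 with IL-33 (log2 difference 0.13, adjusted p = 0.740). The pair is nearly identical in sequence, so the division of reads between them is uncertain. For 11 mitochondrial chaperones and proteases the median was -0.0023, with Clpx at 52.5 ± 2.29 CPM untreated and 60.1 ± 7.89 with IL-33 (log2 difference 0.20, adjusted p = 0.763) and Hspa9 at 1406 ± 27.2 CPM untreated and 1465 ± 36 with IL-33 (log2 difference 0.059, adjusted p = 0.779). The difference between any of these lists and the members was not tested.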

How the data were processed

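RNA-seq of 3 untreated and 3 IL-33 libraries was analysed from deposited tables. HISAT2 2.1.0, DESeq2 1.18.1, StringTie 1.3.4d, FastQC 0.11.7 and the build mm10 are listed, without roles, per the submitters' processing notes. The annotation release, the strandedness and the step behind each table are not stated. The deposited values are estimated counts (whole numbers, about 4 per fragment from the pile of low values) and FPKM per gene and transcript, per the file headers.

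The counts were tested with edgeR 4.0.16 in R 4.3.3 (TMM, robust quasi-likelihood, filterByExpr minimum count 10, Benjamini-Hochberg over all tested genes, threshold 0.05), and 95% intervals come from that fit. The test was run first on simulated data. Alternatives were other scalings, filters, DESeq2 1.42.0, limma 3.58.1 on counts (voom) and on log2(FPKM + 0.1) and log2(FPKM + 1), counts divided by 4, the replicate number as a block, and each library left out.

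Identifiers were matched without version to GENCODE M21 on GRCm38 (52403 of 52550). The members, lists and tests were chosen with earlier results of these data known. By rule, values per library are given for every sensor, factor and ATF4 target and for the members with the smallest unadjusted p or the highest FPKM in the other groups, with the 2 smallest-p genes of each further list. Canx, Pdia4, Hspa5, Sel1l and Derl2 were added after their values were seen, as were Txndc5 and Spcs3. No pair of libraries was as close as counting noise alone would give (ratio of chi-square to its counting value, median over genes, 1.93 to 2.84), and none was treated as a duplicate. Library preparation and transcript assignment can also raise this ratio, so it cannot exclude repeat libraries of the same culture. Floors cover counting error only. Protein sequences were not used here.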

Additional observations from a re-analysis of the deposited data

How the results depend on the processing

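The 34 genes gave 0 calls in all 17 alternative settings, and so did their transcripts in each setting run on transcripts. Their median log2 fold change stayed below 0, with a range of -0.091 to -0.044 over the leave-one-out fits. The count of all genes called was 73 with DESeq2, 17 without a filter on low counts, 6 and 4 with limma on log2(FPKM + 0.1) and log2(FPKM + 1), and 11 to 90 with 1 library left out. The genes called in the other pathway lists were 1 with DESeq2 and 0 to 1 with 1 library left out. The cause of these shifts was not tested.

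The sign of the log2 fold change held in every setting for 22 members and reversed in at least 1 for the other 12, none of them called. Herpud1, close to 0 in the main test, was 0.00805 with upper-quartile factors, 0.000936 with the replicate block, 0.000812 with limma on log2(FPKM + 0.1), 0.000736 with limma on log2(FPKM + 1), and -0.057 to 0.037 with 1 library left out. Over the same leave-one-out fits Xbp1 ran from -0.49 to 0.082, Derl3 from -0.30 to 0.14, Ppp1r15a from -0.047 to 0.070, Chac1 from -0.054 to 0.0093, Sesn2 from -0.036 to 0.042, Calr from -0.0029 to 0.043, Atf6 from -0.0087 to 0.079, Ddit3 from -0.12 to 0.0016, Hsp90b1 from -0.064 to 0.017, Trib3 from -0.033 to 0.0023 and Dnajc3 from -0.020 to 0.099.

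For each gene, log2 CPM was taken as a deviation from its group mean, and these deviations were correlated between untreated and IL-33 libraries. Same-numbered libraries gave 0.0415, 0.0312 and -0.0155. Untreated replicates 1 and 2 correlated best with the IL-33 library of the same number, and untreated replicate 3 with IL-33 replicate 2 (0.0328). The values were small and did not always favour the same number, so the replicate numbers were not taken to pair the libraries. Single transcripts can still go with a number, as the Asns transcript of 2016 bases did in replicate 2 of both groups, and a shared origin of same-numbered libraries was not tested beyond this. With the replicate number as a block 8 genes and 0 members were called, and the median of the members was -0.061. Derl3 was not tested under the stricter filter or with counts divided by 4, and its 11 to 23 deposited counts per library limit what can be said of it.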
